A study of Mus musculus with 47 samples.

Results

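The 23 female brain libraries fell into samples with and without a large cerebellar RNA contribution, and the data below describe both kinds. The libraries were compared by a 4-gene score, the mean over Zic1, Cbln1, Cbln3 and Gabra6 of log2(CPM + 1), where CPM is a gene's count scaled to the library's total count. The sets were thus chosen by the measured levels of these 4 genes. All 4 genes are known for strong expression in cerebellar granule cells. The 8 libraries with the highest score (high-score libraries) were set against the 8 with the lowest (low-score libraries), so that 16 of the 23 female libraries, out of 37 libraries with counts in the series, entered the comparison. Because measured values chose the sets, differences between them are given as a description without a test, and the 4 score genes are left out of every result.

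All mice were 3xTg, an Alzheimer's disease model, and no library came from a mouse of another genotype. The model carries mutant human APP and tau transgenes driven by a neuronal Thy1 cassette and, per the study, also expresses a mutant presenilin. From 6 months of age the females (F-coded) ate for 9 months either an amino acid-defined Control diet (n = 6) or a diet restricted in isoleucine (IleR, n = 5), leucine (LeuR, n = 6) or valine (ValR, n = 6). The 14 libraries labelled male (M-coded; Control n = 4, IleR n = 3, LeuR n = 3, ValR n = 4) had the same genotype and diets and were used as a separate set of samples. The tissue label is brain, and the study describes the material as whole brain, with RNA extracted from the left hemisphere. How much of the cerebellum or brainstem each sample held is not given in the sources used here. Each library had a label of its own, and whether the mice shared cages or litters is not given, so p-values measure the spread between these samples.

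The cerebellum is built from a few cell types in a fixed layout. Granule cells, its most numerous neurons, send parallel fibres onto the dendrites of Purkinje cells, whose inhibitory axons are the only output of the cerebellar cortex, and Bergmann glia line the Purkinje cell layer. The telencephalon (cortex, hippocampus and striatum) uses other transcription factors and signalling proteins, so a few genes in a bulk library report which region the RNA came from. In bulk RNA, fewer cells of a type and less RNA per cell cannot be told apart.

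The score left a wide gap below the high-score set, whereas the low-score set was continuous with the libraries above it. The 8 high-score libraries were LeuR 45 and Control 30 (both 9.44), LeuR 48 (9.10), ValR 36 (8.78), IleR 41 (8.70), ValR 31 (8.41), Control 29 (8.02) and IleR 40 (7.17). The 8 low-score libraries were IleR 38 (2.69), LeuR 47 (2.54), ValR 35 (2.37), LeuR 44 (2.28), Control 25 (2.17), Control 28 and Control 26 (both 2.06) and IleR 39 (1.94). Just outside the high-score set lay ValR 32 at 4.07, and just outside the low-score set lay LeuR 46 at 2.71. The 7 libraries between the sets therefore resembled the low-score set in score. The mean score was 8.63 ± 0.768 (SD, n = 8) in the high-score set and 2.26 ± 0.257 (SD, n = 8) in the low-score set.

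**Figure D1:**
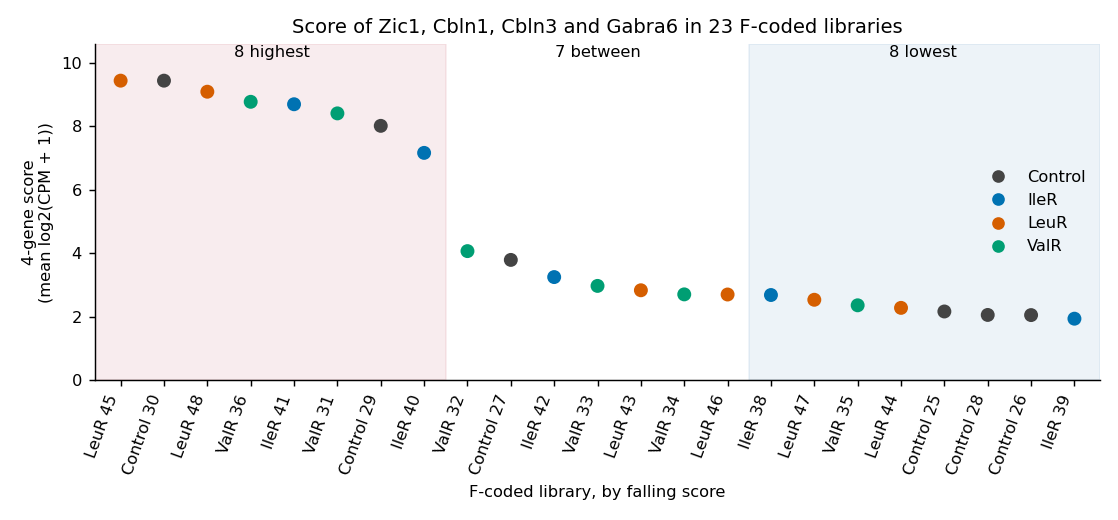
The 4-gene score (y axis, mean log2(CPM + 1)) of each of the 23 F-coded libraries (x axis, by falling score), coloured by diet, with the 8 highest and 8 lowest shaded. The 8 highest lie between 7.17 and 9.44 and the next library is at 4.07.

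Each diet was present in both sets. The high-score set held 2 libraries of each of the 4 diets, and the low-score set held 3 Control, 2 IleR, 2 LeuR and 1 ValR library. Mean scores were 4.59 ± 3.31 (SD, n = 6) for Control, 4.75 ± 2.99 (n = 5) for IleR, 4.82 ± 3.46 (n = 6) for LeuR and 4.89 ± 2.93 (n = 6) for ValR. The differences from Control were 0.16, 0.23 and 0.29, with two-sided exact permutation p of 0.996, 0.786 and 0.775 (0.996 for each after Benjamini-Hochberg adjustment over the 3 comparisons). With any single library left out, the differences lay between -0.83 and 1.26, so the precision of these 3 comparisons was low.

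Depth overlapped between the sets. Total counts ran from 12865421 to 21370973 in the high-score set and from 10672599 to 18268467 in the low-score set, and 21985 to 23774 against 21920 to 22927 genes were detected. The mitochondrial share of counts was 3.88% to 4.54% in the high-score libraries and 4.31% to 5.59% in the low-score libraries, and its part in the results was not tested. Xist, the RNA that silences an X chromosome, was at 531 to 924 CPM in the F-coded libraries and at most 0.524 CPM in the M-coded libraries, while the Y-linked genes Uty, Kdm5d, Ddx3y and Eif2s3y stayed at 0 counts in all F-coded libraries. No 2 libraries of the same code agreed within sampling noise, since the lowest chi-square per degree of freedom of a pair was 7.49 among F-coded and 9.03 among M-coded libraries, where sampling noise alone gives about 1.

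Across the 20340 genes that passed the filter on low counts, 433 were higher in the high-score set (2.13%) and 102 were lower (0.501%). A gene was counted when the means of log2 CPM, here scaled by the trimmed mean of M-values (TMM) with a prior count of 2, differed by at least 1 and no library of 1 set overlapped the other set. Without the condition on overlap, 817 genes were higher and 879 lower by at least 1, and the median difference over all genes was 0.00. The filter kept a gene if all libraries of 1 or more diets had a count of 1 or higher, and since every diet had low-score libraries, genes absent from all low-score libraries could not pass. Most Hox genes, Skor2, Dao and En1 did not pass and are given as CPM only. Unless stated otherwise, values below are mean CPM ± SD with n = 8 in each set.

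The genes with the largest positive differences included several that mark cerebellar neurons. Fat2, a protocadherin of granule cell parallel fibres (GRCm38 chromosome 11, 55250609 to 55336564, minus strand, GENCODE M21), ranged in the high-score set from 148 CPM in IleR 40 through a median of 382 to 715 in Control 30. In the low-score set Fat2 ran from 0 in LeuR 44 through 0.397 to 0.871 in ValR 35, so the sets lay far apart, at 416 ± 217 and 0.359 ± 0.304 CPM and a ratio of means of 1158. Pcp2, a Purkinje cell protein that acts on G protein signalling (chromosome 8, 3623371 to 3625545, minus strand), ranged from 53.2 in IleR 40 through 127 to 252 in Control 30, against 0.0955 in LeuR 44 through 0.494 to 1.10 in ValR 35. The order of the libraries was similar for both genes, with Control 30 and LeuR 45 highest and IleR 40 lowest of the 8.

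A pair of neighbouring genes on chromosome 5 followed. Cnpy1, a canopy family gene (28200819 to 28245806), was at 192 ± 76.2 CPM in the high-score set and 0.676 ± 1.10 in the low-score set, a log2 difference of 8.65. En2, a homeobox factor of the midbrain and cerebellar primordium (28165694 to 28172166), was at 82.4 ± 35.0 against 1.82 ± 1.39, a difference of 5.56. Ppp1r17, a phosphatase inhibitor of Purkinje cells, was at 76.4 ± 41.3 against 0.259 ± 0.238 (7.61), and Car8, a Purkinje cell protein that binds the IP3 receptor, was at 350.4 ± 196 against 5.14 ± 1.32 (5.87).

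The other members of the 15 largest positive differences had log2 differences between 4.88 and 6.95. They were Slc6a5 (the glycine transporter of glycinergic neurons, 6.95), Lhx1 (a LIM homeobox factor of Purkinje cells, 6.43), Barhl2 (a homeobox factor, 6.01), Arhgef33 (a guanine exchange factor, 5.85), Il20rb (an interleukin receptor chain, 5.65), Ltbp2 (a matrix protein, 5.42), Zfp385c (a zinc finger protein, 5.20), Mab21l1 (5.11) and Ptpn22 (a phosphatase known from lymphocytes, 4.88). For Mab21l1 the low-score set was uneven, with LeuR 47 at 10.1 CPM and the other 7 libraries between 0.147 and 1.25.

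**Figure D2:**
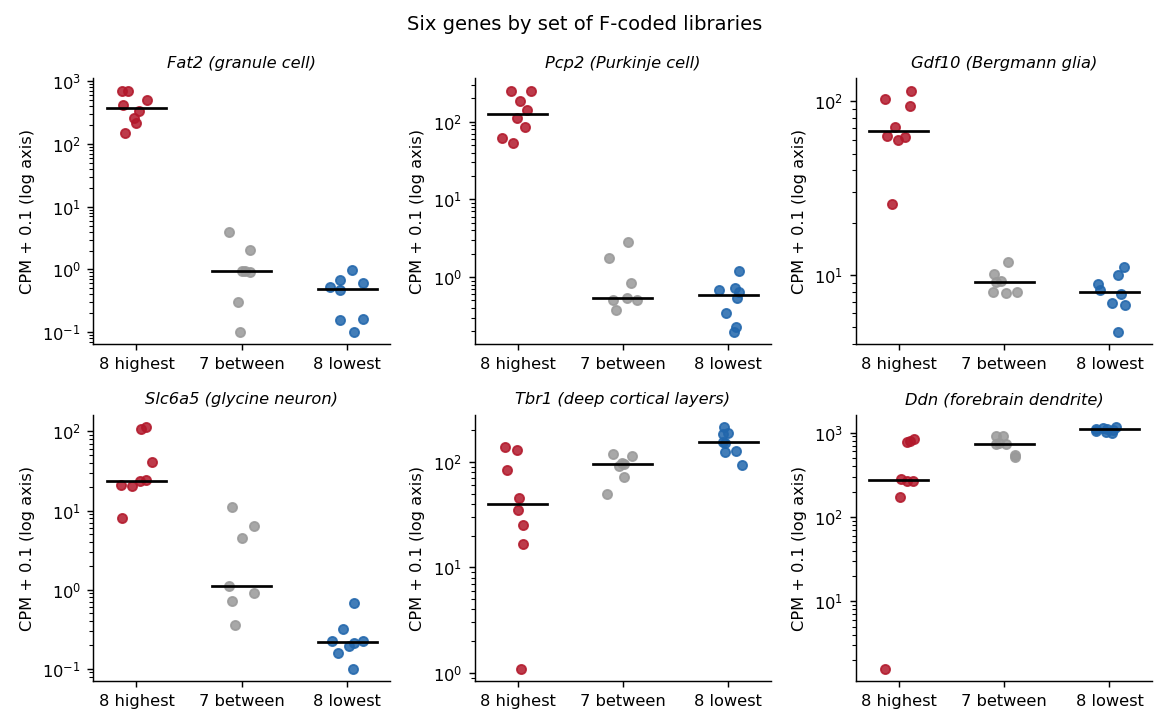
CPM + 0.1 on a log axis (y) of 6 genes in the 8 high-score, 7 intermediate and 8 low-score F-coded libraries, 1 point per library and a bar at the median. Fat2, Pcp2, Gdf10 and Slc6a5 are high on the left, while Tbr1 and Ddn are lower and more spread there, with 1 library (LeuR 45) at 0.989 and 1.48 CPM.

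Granule cell genes were described by a list of 16 genes without the score genes. All 16 passed the filter, 11 were higher and 0 lower, with a median log2 difference of 2.50. Neurod1, a factor that granule cells need for survival, ranged from 79.4 through 211 to 338 CPM in the high-score set and from 7.20 through 12.2 to 17.4 in the low-score set. Chn2, a Rac GTPase-activating protein, was at 415 ± 166 against 45.9 ± 9.66, and Etv1, a factor of maturing granule cells with forebrain expression as well, was at 286 ± 82.8 against 89.3 ± 19.8. Zic2, Zic4 and Zic5, relatives of the score gene Zic1, differed by 3.35, 2.49 and 3.25 on the log2 scale. Calb2, Pax6, Meis1 and Grin2c were also counted as higher.

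Of the granule cell genes that were not counted, Gabrd (0.50), Kcnd2 (0.43) and Cadps2 (0.89) differed by less than 1, and forebrain neurons are known to express them as well. Barhl1 differed by 5.11 but overlapped, since low-score LeuR 47 had 5.69 CPM while high-score Control 29 had 5.01. Unc13c differed by 1.29 and also overlapped.

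Purkinje cell genes showed a similar pattern. Of 16 listed genes 15 passed, of which 11 were higher and 0 lower, with a median difference of 2.62. Calb1, the calcium buffer calbindin, was at 448 ± 178 CPM against 127 ± 23.2, and Homer3, a postsynaptic scaffold, was at 183 ± 95.1 against 12.9 ± 8.15. Slc1a6, the Purkinje cell glutamate transporter, was at 89.6 ± 39.2 against 7.45 ± 1.83. Itpr1, the IP3 receptor, differed by 1.46 but ranged from 846 to 3143 CPM against 483 to 908 and so overlapped.

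Pcp4 and Foxp2 were the Purkinje cell genes that departed from the rest of their list. Pcp4, a calmodulin-binding peptide that is also abundant in striatum and cortex, was at 255 ± 60.3 CPM against 251 ± 63.4, a difference of 0.02. Foxp2, a forkhead factor also used in striatum and thalamus, was at 15.2 ± 6.75 against 29.8 ± 9.29, a difference of -1.03 with overlapping sets. Skor2, a Purkinje cell corepressor that did not pass the filter, was at 2.96 to 15.6 CPM in the high-score set, whereas 2 counts in all were found in the 8 low-score libraries, a ratio of 508 with a 95% counting interval of 141 to 4193.

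Bergmann glia and the other cerebellar cells were represented by shorter lists. Of 5 Bergmann glia and cerebellar astrocyte genes that passed, 3 were higher (median 1.58): Gdf10, a secreted TGF-beta family member (74.1 ± 28.6 against 7.91 ± 2.00), A2m, a protease inhibitor (51.7 ± 27.0 against 4.05 ± 4.50), and Hopx (60.9 ± 19.0 against 20.1 ± 5.75). Slc1a3, a glutamate transporter of all astrocytes, differed by 0.61. Dao, D-amino acid oxidase of cerebellar astrocytes, did not pass the filter and was at 8.17 to 47.2 CPM against 0 to 0.327. Thus no library of 1 set reached the other in Dao or Gdf10.

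Genes of cerebellar interneurons and unipolar brush cells gave 5 of 8 higher, with a median of 2.45. Tfap2b and Tfap2a, factors of the GABAergic cerebellar lineage, differed by 4.08 and 3.75, Pax2, a factor of interneuron precursors, by 3.89, and Kit, a receptor of molecular layer interneurons, by 1.16. Eomes, a factor of unipolar brush cells that also marks cells of the olfactory bulb, ranged from 1.65 to 21.8 CPM against 0 to 1.49. Grm2 (-0.48), Sorcs3 (-0.79) and Lgi2 (0.41) were not counted.

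Among 7 patterning factors that passed, 5 were higher with a median of 4.19, namely En2, Mab21l1, Barhl2, Irx3 (6.34 ± 1.90 CPM against 0.391 ± 0.478) and Irx5 (2.84 ± 1.34 against 0.219 ± 0.267). Gbx2, a factor of the hindbrain side of the isthmus that is also expressed in thalamus, was at 0.347 ± 0.551 against 1.15 ± 1.59. En1, which did not pass, was at 0 to 4.66 CPM against 0 to 3.20 and so overlapped.

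**Figure D3:**
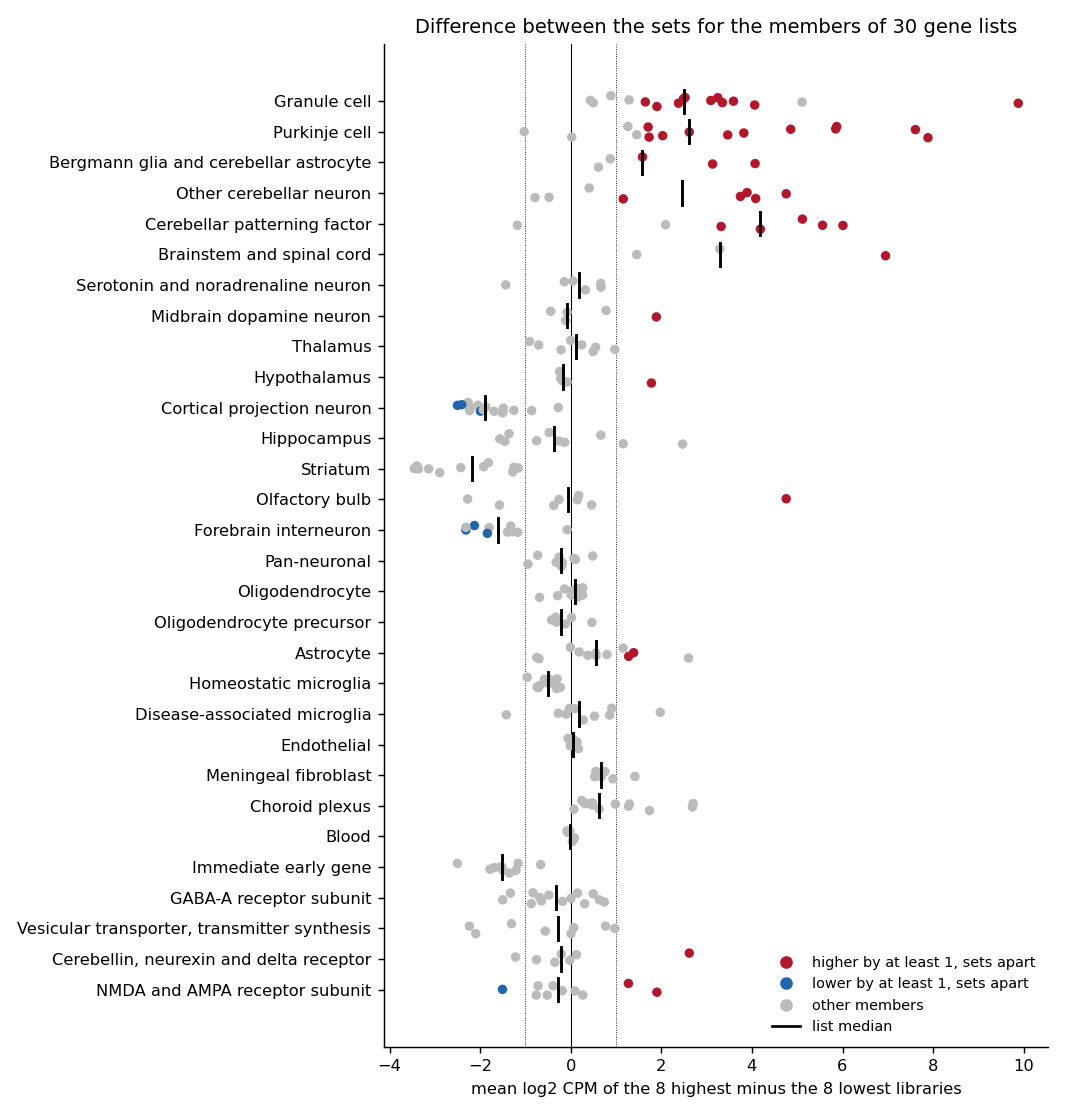
Difference in mean log2 CPM between the high-score and low-score sets (x axis) for each member of 30 gene lists (rows) that passed the filter. Red marks members counted as higher, blue those counted as lower, grey the rest, and a black bar the median of each list, which is 2.50 for granule cells, 2.62 for Purkinje cells and -1.90 for cortical projection neurons.

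Genes of cortical projection neurons and forebrain interneurons differed in the opposite direction, with more spread inside the high-score set. All 16 listed genes of cortical projection neurons had negative differences (median -1.90), and 3 of them were counted as lower. Ddn, the dendritic protein dendrin of forebrain neurons (chromosome 15, 98803777 to 98809490, minus strand), was at 1.48 CPM in LeuR 45, 171 in Control 30, 263 in LeuR 48, 282 in ValR 36, 266 in IleR 41, 840.2 in ValR 31, 805 in Control 29 and 775 in IleR 40. In the low-score set Ddn was between 989 and 1157 CPM with a median of 1092. The high-score libraries thus ran from nearly no Ddn to levels just under those of the low-score libraries.

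Other cortical genes had a similar order. Camk2a, the kinase subunit abundant in forebrain excitatory synapses, ranged from 102 through 877 to 2825 CPM against 3044 to 4152. Tbr1, a factor of deep cortical layers, ranged from 0.989 in LeuR 45 to 139 in IleR 40 against 93.0 to 213, and so overlapped. Nrgn (-2.27), Bcl11b (-2.22) and Fezf2 (-1.87) had similar differences but overlapped too, and Cux2, which cerebellar cells also express, differed by only -0.28.

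Forebrain interneuron genes gave 3 of 10 lower and a median of -1.60, with all 10 differences negative. Dlx2 was at 1.58 ± 1.23 CPM against 5.96 ± 1.56, Dlx1 at 10.8 ± 8.05 against 29.1 ± 5.82 and Lhx6 at 7.85 ± 5.75 against 20.8 ± 3.68, all 3 being factors of interneurons from the ganglionic eminences. Sst, the somatostatin gene, differed by -1.29 with overlap. The mean level of the list was 0.65 (log2 CPM) in LeuR 45 and 2.63 to 4.27 in the other 7 high-score libraries, against 4.40 to 4.92 in the low-score set.

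Further genes among the 15 most negative differences lay between -2.34 and -1.88. They were Rgs14 (a G protein regulator of hippocampal CA2 neurons, -2.34), Kcnip2 (a potassium channel partner, -2.30), Chrm1 (a muscarinic receptor, -2.25), Ptk2b (a tyrosine kinase, -2.23), Islr2 (-2.03), Nr2e1 (a nuclear receptor of forebrain progenitors, -2.0), Rin1 (a Ras effector, -1.95), Hpca (hippocalcin, -1.88) and Emx2os (-1.88). Emx2os is annotated antisense to Emx2, and whether counting used strand is not given in the sources used here, so reads of the 2 genes may not be separated.

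The 2 directions had different shapes across the libraries. For the 433 higher genes the median SD over the high-score libraries was 0.54 (log2 CPM) and for the 102 lower genes it was 0.83, against 0.29 over all genes. In 344 of the 433 and in 97 of the 102 the mean of the 7 intermediate libraries lay between the means of the sets. Leaving out LeuR 45 moved the cortical median from -1.90 to -1.39 and the interneuron median from -1.60 to -1.22, with 3 lower genes in each list still. Leaving out IleR 40, the high-score library nearest to the others, raised the count of lower genes over all genes from 102 to 294 and the counts in these lists to 6 and 5. Leaving out low-score IleR 38 gave 160 lower genes.

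Striatal genes differed by more on average but were uneven, with 0 of 12 counted as lower and a median of -2.18. Without IleR 40, 2 of them were counted as lower (median -2.44). Unlike the cortical list, the striatal list level varied more in the low-score set (SD 1.40 log2 CPM, n = 8) than in the high-score set (0.85, n = 8), as did that of the hippocampal list (0.89 against 0.34). Drd1, the D1 dopamine receptor, was at 0.309 to 24.1 CPM in the high-score set and 11.3 to 129 in the low-score set. The overlap came from the low-score side as well, since IleR 38 and LeuR 47 had 11.3 and 12.0 CPM while Control 25 had 129. In the same order the list level was 3.34, 3.72 and 7.40 log2 CPM.

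Hippocampal (0 of 10, or 1 without Control 25, median -0.36), thalamic (0 of 8, 0.12), serotonin and noradrenaline neuron (0 of 6, 0.19), and olfactory bulb genes (1 of 8, -0.06) had few or no counted members. With 1 library left out the medians ran from -0.45 to -0.19 for the hippocampal, 0.05 to 0.29 for the thalamic, -0.14 (without ValR 36) to 0.30 for the serotonin and noradrenaline, and -0.19 to 0.11 (without Control 26) for the olfactory bulb list, so the direction of the last pair was not fixed. The olfactory bulb gene was Eomes, described above with unipolar brush cells. In the hypothalamic list 1 of 5 passing genes was higher, Hmcn1 (11.8 ± 5.27 CPM against 3.05 ± 0.423), a matrix protein that is not a hypothalamic peptide. Among midbrain dopamine genes 1 of 5 was higher, Aldh1a1 (117 ± 43.2 against 30.6 ± 10.1), a retinaldehyde dehydrogenase, while Th, the enzyme that defines these neurons, differed by 0.78 and overlapped.

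Brainstem and spinal cord genes were present in the high-score libraries to very different degrees. Slc6a5 ranged from 8.04 CPM in IleR 40 through 23.7 to 107 in LeuR 45 and 113 in ValR 36, against 0 to 0.588 in the low-score set, and Golgi interneurons of the cerebellum express it as well as glycinergic neurons of the brainstem. Glra1, a glycine receptor subunit of brainstem and spinal cord, reached 27.8 CPM in LeuR 45, 15.0 in LeuR 48 and 13.5 in ValR 36, with a lowest value of 0.476, against 0.0623 to 1.37. These 2 genes and Hoxb4 were the 3 of 16 listed genes that passed, and only Slc6a5 was counted, while leaving out ValR 31 gave 2 counted genes.

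Hox genes, which pattern the hindbrain and spinal cord and are largely silent in the cerebellum and forebrain, separated the high-score libraries further. Hoxb3 was at 5.38 CPM in LeuR 45 and 4.79 in ValR 36 but at most 0.921 in the other 6, and had 0 counts in the 8 low-score libraries, which made the high-score mean at least 64.6-fold higher against a floor of 3 counts over the set. Hoxa5 (7.97 and 4.79) and Hoxd3 (5.19 and 3.90) were high in the same 2 libraries, LeuR 45 and ValR 36. In Hoxb5 these 2 stood at 10.9 and 7.21 CPM, against 2 counts in all low-score libraries. The part of brainstem tissue in the other differences was not tested.

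**Figure D4:**
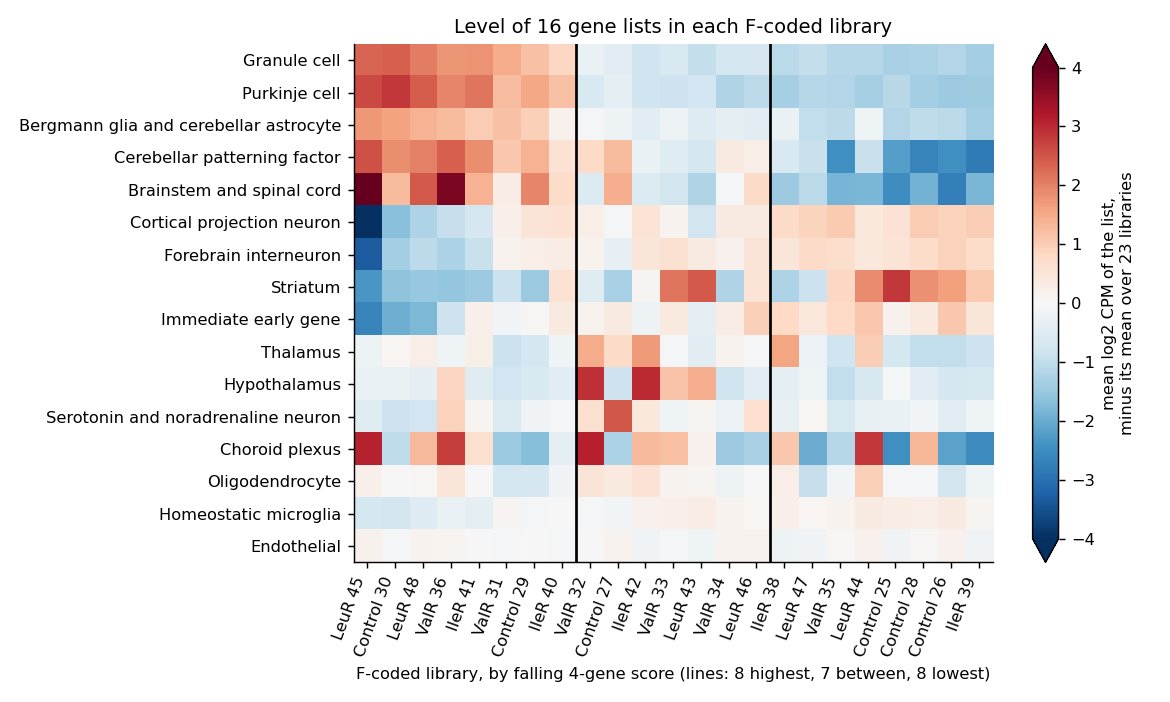
Mean log2 CPM of 16 gene lists (rows) in each of the 23 F-coded libraries (columns, by falling score), as colour relative to the mean of the list over the 23 libraries, with black lines at the borders of the sets. Granule and Purkinje cell lists are high in the 8 libraries on the left, and cortical genes are lowest in LeuR 45 (2.50). Brainstem genes, of which only the 3 of 16 that passed the filter enter the level, are highest in LeuR 45 (4.34) and ValR 36 (3.88).

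Choroid plexus, the epithelium that makes cerebrospinal fluid in the ventricles, varied within both sets. Ttr, the transthyretin gene that it expresses strongly, ranged from 1.67 CPM in Control 29 to 2083 in LeuR 45 in the high-score set, and from 0 in Control 25 to 1659 in LeuR 44 in the low-score set. All 13 choroid plexus genes had positive differences, with a median of 0.63, but 0 were counted, and the summed level of the list was 169.9 to 3496 CPM against 193 to 2881. The median depended on single libraries, and was 0.135 without LeuR 45, 0.244 without ValR 36, 0.380 without IleR 39 and 0.397 without LeuR 48, but 0.98 without IleR 38, 1.00 without Control 28, 1.01 without Control 29, 1.09 without Control 30 and 1.14, with 1 gene counted, without LeuR 44. Its part in the other results was not tested. The 8 meningeal fibroblast genes also had positive differences (median 0.66, 0 counted). Blood genes, with alpha and beta globin copies that share reads, had a median of -0.02, which ran from -0.22 to 0.25 with 1 library left out.

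Oligodendrocyte (0 of 12, median 0.10), oligodendrocyte precursor (0 of 6, -0.22) and endothelial genes (0 of 8, 0.04) had 0 counted members. With 1 library left out these medians ran from -0.03 to 0.25, -0.26 to -0.10 and 0.0088 to 0.078. Among 12 astrocyte genes 9 had positive differences (median 0.56) and 2 were counted as higher, Aqp4, the water channel (272 ± 86.6 CPM against 101 ± 24.9), and Slc4a4, a bicarbonate cotransporter (372 ± 103 against 148 ± 16.0). Of the astrocyte genes that were not counted, Slc1a2 and Mfge8 had differences of -0.75 and -0.70 and Agt and S100b of 2.60 and 1.16.

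Microglial genes are given because microglia respond to amyloid in this model. All 11 homeostatic microglia genes had negative differences (median -0.51), and 0 reached -1, although 1 was counted as lower without ValR 31, Control 29 or IleR 40. P2ry12, the purinergic receptor of resting microglia, was at 17.3 ± 7.12 CPM against 31.4 ± 3.7, and Cx3cr1, the fractalkine receptor, at 30.9 ± 9.24 against 47.6 ± 1.88, both without overlap. Disease-associated microglia genes had a median of 0.18 with 0 of 10 counted, and 1 counted as higher without Control 29 (median 0.09 to 0.27 with 1 library left out). In that list Spp1, osteopontin, differed by 1.98, while Trem2, the receptor that microglia need for this state, was at 7.97 ± 1.47 against 9.67 ± 1.72.

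Immediate early genes, which neurons induce with activity, all had negative differences, with a median of -1.51 over 10 genes and 0 counted as lower. That count was 2 without IleR 40 or Control 25 and 1 without Control 29. Egr1 was at 135 ± 86.0 CPM against 319 ± 58.5 and Arc at 69.8 ± 53.1 against 163 ± 62.7. The list level was 2.40 in LeuR 45, 3.13 in Control 30 and 3.30 in LeuR 48, and 4.27 to 5.46 in the other 5 high-score libraries, so it was lowest in libraries that were also low in cortical genes. Pan-neuronal genes, by contrast, had a median of -0.22 with 0 of 10 counted (1 without LeuR 44), and Snap25 and Rbfox3 differed by -0.21 and 0.10.

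Synaptic receptor genes differed by subunit. In the NMDA and AMPA list 2 of 10 were higher and 1 lower, with Grin2c, the NMDA subunit of adult granule cells, at 285 ± 84.7 CPM against 73.8 ± 11.6 and Gria4 at 259 ± 66.5 against 104 ± 6.89. Grin2b, the NMDA subunit of forebrain neurons, was at 209 ± 143 against 456 ± 37.0. Of 14 GABA-A subunits 0 were counted (median -0.33), with Gabrg3 (-1.50) and Gabra4 (-1.33) the most negative and Gabrq (0.74) the most positive. Without IleR 40, 2 of these subunits were counted as lower, and 1 was without IleR 38 or LeuR 47.

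Cbln2, a cerebellin of the forebrain, differed by -1.22. Vesicular transporter and transmitter synthesis genes had 0 of 8 counted (median -0.28), and 1 without IleR 40. Gad1, the GABA-synthesizing enzyme used in both regions, was at 409 ± 66.2 against 389 ± 53.6 CPM, and Slc17a7, the vesicular glutamate transporter of granule cells and cortex alike, at 749 ± 353 against 1254 ± 228.

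The M-coded libraries, which took no part in choosing the sets, allowed a test of whether the same genes followed the score. For each of 22193 genes edgeR's quasi-likelihood test gave the slope of log2 expression per unit of score, with diet as a factor, so that the slope came from libraries within a diet. The score ran from 1.75 to 2.69 in Control, 7.72 to 9.14 in IleR, 3.59 to 7.89 in LeuR and 7.88 to 9.42 in ValR. All 4 M-coded Control libraries were thus lower than every library of the other 3 diets, in contrast to the F-coded libraries. Without diet as a factor, score and diet cannot be told apart in this set.

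At an edgeR adjusted p under 0.05, 245 genes rose with the score in the M-coded libraries (1.1%) and 245 fell (1.1%). Of the 433 genes higher in the F-coded high-score set, 151 rose (34.9%) and 0 fell, and 419 had a positive slope (96.8%, against 50.98% of all genes), with a median slope of 0.35. Of the 102 lower genes, 10 fell (9.80%) and 0 rose, and 98 had a negative slope (96.1%), with a median of -0.23. Read the other way, 61.6% of the genes that rose had been counted as higher in the F-coded libraries, but 4.08% of those that fell had been counted as lower.

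Fat2 had the steepest rise among genes of mean log2 CPM of at least 1, with a slope of 1.65 ± 0.192 (SE, edgeR adjusted p = 0.00124). In the M-coded libraries Fat2 was at 0.178 to 0.894 CPM in Control, 235 to 636 in IleR and 199 to 794 in ValR, and at 0.169, 46.1 and 196 in LeuR 21, LeuR 19 and LeuR 20. The steepest 10 also held Cnpy1 (1.58), Pcp2 (1.38), Nrk (1.26), Crtam (1.25), En2 (1.19), B3gnt5 (1.13), Il20rb (1.13), Hes3 (1.12) and Ptpn22 (1.10), with edgeR adjusted p between 4.87e-05 and 0.0124. All 10 were also higher in the F-coded high-score set, by 3.32 to 9.88 on the log2 scale. Nrk is a kinase, Crtam an adhesion receptor known from lymphocytes, B3gnt5 a glycosyltransferase, and Hes3 a Notch pathway repressor of the isthmus.

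By list, 8 of 16 granule cell genes, 9 of 16 Purkinje cell genes and 2 of 6 Bergmann glia genes rose, and 0 fell. With any 1 library left out, 4 to 11 granule cell, 6 to 10 Purkinje cell and 0 to 3 Bergmann glia genes rose and 0 fell in these 3 lists. The granule cell count was 4 without ValR 9 or IleR 13 and 5 without IleR 17, LeuR 20 or ValR 10. The Purkinje cell count was 6 without any of ValR 7, 9 or 10, IleR 13, 14 or 17, or LeuR 21. The Bergmann glia count was 0 without IleR 13, IleR 17, LeuR 21 or ValR 10, and 1 without LeuR 20 or ValR 7, 9 or 12. Neurod1 had a slope of 1.00 ± 0.103 (edgeR adjusted p = 0.000463) and Car8 of 1.05 ± 0.0950 (0.000148), while Calb1 had a slope of 0.16 ± 0.151 and did not pass (0.692). Cerebellar interneuron and patterning lists each had 1 of 8 that rose, Kit (0.34) and En2. For the interneuron list 4 rose without Control 4, 3 without LeuR 19 and 2 without LeuR 21, and 0 rose without IleR 17, LeuR 20 or ValR 7, 9 or 10, with 1 that fell without LeuR 20. For the patterning list 2 rose without Control 4, and 1 fell without LeuR 21. DESeq2 gave 4 interneuron genes that rose and 1 patterning gene that rose and 1 that fell, and limma voom gave 2 that rose in each list. Grin2c (0.50), Gria4 (0.26), Aqp4 (0.38) and Tdo2, a tryptophan dioxygenase in the hippocampal list (0.78), rose as well. Of the 19 alternative settings, Tdo2 and Slc1a6 passed the threshold in 8 each, Zic2 in 10, Meis1 and Skor2 in 11 each, Gdf10 and Hopx in 13 each, Kit and Grin2c in 14 each, Aqp4 in 15 and Gria4 in 16.

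In the M-coded libraries 0 of 16 cortical, 0 of 10 forebrain interneuron and 0 of 12 striatal genes were past the threshold in either direction. Their median slopes were -0.04, -0.29 and -0.48. In the hippocampal list 1 of 10 genes rose, which was Tdo2. The cortical and interneuron counts of 0 depended on LeuR 20, without which 7 cortical and 5 interneuron genes fell. Without Control 4 a cortical gene rose, and without Control 3 a striatal gene fell. DESeq2 called 1 cortical gene that rose and 1 striatal gene that fell, and limma voom 2 interneuron genes that fell. Ddn had a slope of -0.17 ± 0.372 (edgeR adjusted p = 0.892). It was at 438 to 1233 CPM in the Control libraries, and in the others at 224 in LeuR 20, 167 in LeuR 21, 99.1 in IleR 13 and 2.16 to 7.20 in the remaining 7. When diet was left out of the model, 3345 of all 22193 genes fell (15.1%) and 2983 rose (13.4%). In that fit 15 of 16 cortical, 9 of 10 interneuron, 7 of 12 striatal and 9 of 10 immediate early genes fell, as did 7 of 14 GABA-A subunits and 5 of 11 homeostatic microglia genes, and 10 of 14 brainstem genes rose. In the same fit 12 of 16 granule cell, 14 of 16 Purkinje cell and 6 of 12 oligodendrocyte genes rose. Astrocyte genes gave 6 that rose and 2 that fell of 12, and disease-associated microglia genes 5 that rose and 1 that fell of 10. With diet in the model, 0 of 14 brainstem genes were called (median slope -0.08, 5 positive), and 0 of 10 immediate early genes (median -0.03). The model with diet also called 0 of 11 homeostatic microglia, 0 of 12 oligodendrocyte and 0 of 10 disease-associated microglia genes. It gave 1 of 14 GABA-A subunits that fell and 1 of 12 astrocyte genes that rose.

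The genes that fell rested largely on a single library. In the hypothalamic list 5 of 8 genes fell (median slope -2.53) but 0 fell without LeuR 21. M-coded LeuR 21, which had the lowest score outside Control, carried 77.8 CPM of Hcrt and 325 CPM of Pmch, peptides of lateral hypothalamic neurons, against at most 0.179 and 2.05 in the other 13 libraries. The 10 steepest falls at a mean log2 CPM of at least 1 included Cartpt (-1.35), Trh (-1.16), Pdyn (-0.93), Fndc9 (-0.84), Rspo1 (-0.80), Kcna5 (-0.80), Otof (-0.68), Cpne5 (-0.67) and Oprk1 (-0.66). Cartpt, Trh and Pdyn encode neuropeptide precursors and Oprk1 the kappa opioid receptor. Without LeuR 21, 26 genes fell and 137 rose, and without Control 4, 626 fell and 533 rose. Without any of ValR 7, 9, 10 or 12 or IleR 13 or 17, 123 to 161 rose and 79 to 115 fell, and without IleR 14, 142 fell. Fat2, Pcp2, Car8, Neurod1, Etv1, Chn2, En2, Ppp1r17 and Ptpn22 stayed past the threshold in all 19 alternatives, among them each of these omissions. Cnpy1 was lost without LeuR 21, and so were Cartpt, Trh, Pdyn, Fndc9, Rspo1, Kcna5, Otof, Cpne5, Oprk1, Hcrt and Pmch. Kcna5 passed in 6 of the 19, Otof in 10, Cartpt in 11, and Trh and Oprk1 in 12 each.

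**Figure D5:**
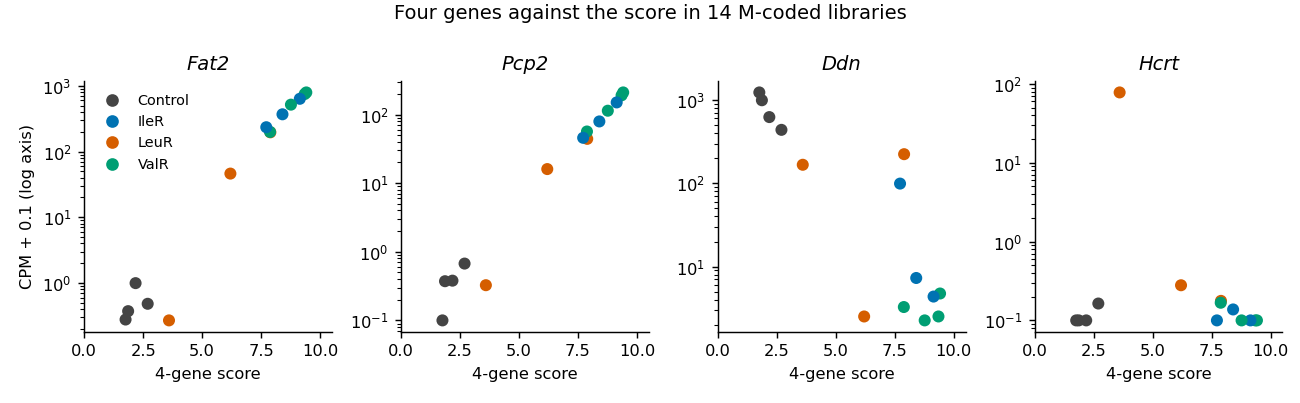
CPM + 0.1 on a log axis (y) against the 4-gene score (x) for Fat2, Pcp2, Ddn and Hcrt in the 14 M-coded libraries, coloured by diet. Fat2 and Pcp2 rise with the score from below 1 CPM to 794 and 210 CPM, while Hcrt is high in LeuR 21 only (77.8 CPM).

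The score was then used as a covariate to ask whether diet effects in the F-coded libraries came out once this source of spread was in the model. With the score in the edgeR quasi-likelihood fit of all 23 libraries, 0 genes (0%) differed from Control in IleR, in LeuR or in ValR at an adjusted p under 0.05. At an unadjusted p under 0.05 the fit gave 954, 1497 and 1222 genes, against 577, 820 and 777 without the score, where 1017 of 20340 would be found on average if no gene differed. The count for IleR with the score was thus under that number. In the order IleR, LeuR, ValR, the smallest edgeR adjusted p was 0.189, 0.541 and 0.641 with the score and 0.140, 0.967 and 0.949 without it. The limma voom fit also gave 0 for each diet, whereas DESeq2 called 7 higher and 1 lower for IleR and 2 higher and 1 lower for LeuR. For IleR the edgeR count reached 4 to 5 genes higher when IleR 38, IleR 41 or IleR 42 was left out.

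The DESeq2 calls were not cerebellar or forebrain marker genes. In LeuR they were Ppp1r15a, a stress-induced phosphatase subunit, and Gm26648, both higher, and Trim23, lower. In IleR Zfp933 was lower, and Pttg1, Eif3j2, Eno1b, Rps3a2, Rpl34-ps1, Atp6v0c-ps2 and AC102496.1 were higher, several of which are near-identical copies of other genes whose reads can be split between copies. These genes are named because the counts are small, and were chosen after their values were seen.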

How the data were processed

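Counts of 37 brain RNA libraries, made with Illumina TruSeq reagents, were analysed. Per the labels and the methods, the authors aligned reads to mouse GRCm38 and estimated expected counts per Ensembl gene ID with RSEM. The study's methods also state that clear outliers were removed. The deposited expected counts, estimated and therefore not always whole, were rounded. Of 55416 gene IDs, 52083 matched a symbol in GENCODE M21 (GRCm38). The deposited tables of the authors' own comparisons of each restricted diet with Control (log2 fold changes, p-values and adjusted p-values) were not used. There were 10 further M-coded sample labels without a column of counts, which were not analysed here.

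Counts were scaled with edgeR 4.0.16 (TMM, prior count 2) in R 4.3.3, keeping genes for which all libraries of 1 or more diets had a count of 1 or higher, F-coded and M-coded libraries apart. The sets of F-coded libraries were compared by difference and overlap, the score between diets by exact permutation, and the M-coded slopes and F-coded diets by the quasi-likelihood test of edgeR (Benjamini-Hochberg adjusted p under 0.05). Main alternatives were DESeq2 1.42.0, limma 3.58.1 (voom), other scaling, filters and prior counts, and leaving out each library. Scripts were tested on simulated data.

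The score genes, sets and gene lists were chosen with earlier results of these data known. Genes named were the 15 highest and 15 lowest differences among genes of mean log2 CPM of at least 1 without overlap and with a named symbol, in each list the 3 most expressed and the 2 extreme members with any other member allowed, the sex-linked genes, and the 10 highest and 10 lowest called slopes at mean log2 CPM of at least 1. Some genes that the rule names, with the results that need them, are not reported here. Floors of 3 counts and the 95% interval of a ratio of counts cover counting error only. Coordinates are those of GENCODE M21.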

Additional observations from a re-analysis of the deposited data

Results flagged for a closer look

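In 168 groups of 7 or 8 F-coded libraries checked (list levels and named genes within a set), 22 had a library far from the others by Dixon's criterion, and chance flags about 1 in 20 groups. Among the 8 high-score libraries, LeuR 45 stood apart with the lowest level of the cortical projection neuron list (2.50 log2 CPM), the forebrain interneuron list (0.65) and the cerebellin and neurexin list (6.07). LeuR 45 was also the low library for the log2 CPM of Dlx2 (-3.01), Emx2os (-3.01), Dlx1 (-2.01), Nr2e1 (-2.01), Rgs14 (-1.21), Chrm1 (-0.015), Ddn (0.69) and Kcnip2 (1.94), where -3.01 corresponds to 0 counts. These values come from the same library and are not separate observations.

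In the same set, IleR 40 stood apart below the others in the list of other cerebellar neurons (3.99) and Control 30 in that of oligodendrocyte precursors (3.34). ValR 36 stood apart above the others in the hypothalamus list (0.578). Among the 7 intermediate libraries, Control 27 was high in the serotonin and noradrenaline neuron list (2.96).

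Among the 8 low-score libraries, Control 26 was high in the olfactory bulb list (1.62), LeuR 44 was low in the GABA-A receptor list (5.31) and in Chrm1 (7.24), IleR 38 was high in the NMDA and AMPA receptor list (7.67) and LeuR 47 in Mab21l1 (3.35).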

How the results depend on the processing

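No paired analysis was possible because the diet groups share no replicate numbers. The count of genes higher in the high-score set stayed within 1.5 times of 433 under every alternative (404 to 569 with a library left out). The count of lower genes was 102, and became 169 with a 1.5-fold limit and 67 with CPM of the column total, which shifted the median difference over all genes by 0.101 and gave 498 higher genes. With a library left out it ran from 81 to 294. For the M-coded slopes, DESeq2 gave 578 genes that rose and 670 that fell in place of 245 and 245, a model without diet gave 2983 and 3345, and leaving out a library gave 123 to 533 and 26 to 626. The model without diet compares libraries of different diets, and the cause of the other shifts was not tested. In the diet comparisons with the score as a covariate, edgeR gave 0 genes and DESeq2 gave 7 higher and 1 lower for IleR and 2 higher and 1 lower for LeuR, and leaving out a library gave 0 to 5 higher for IleR. The score differences between diets with TMM scaling were 0.15, 0.18 and 0.28 (exact permutation p = 0.996, 0.812 and 0.781). Among the named genes whose values were followed under each alternative, none changed sign while being past its threshold. For slopes these were the genes called with diet in the model and the 15 highest and 15 lowest differences. Other list members were not followed in this way. The fit without diet called 15 of 16 cortical genes as falling, although 6 of 16 had positive slopes with diet in the model. At these depths a gene without counts in the 8 low-score libraries is bounded only by the floor of 3 counts.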

Other observations

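The 7 intermediate libraries were in neither set, and their values for regional genes differed widely. ValR 32 and IleR 42 carried 17.0 and 34.9 CPM of Hcrt and 106 and 113 CPM of Pmch, peptides of the lateral hypothalamus, while the other 5 had at most 0.786 and 0.611. Avp was at 47.7 CPM in IleR 42 and 93.2 in LeuR 43, and Oxt at 37.3 in ValR 33 and 39.6 in LeuR 43. Prkcd, a kinase abundant in thalamus, was at 217 CPM in IleR 42 and 108 in ValR 32, and at 215 in the low-score library IleR 38.

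Control 27 was the library with the highest serotonin neuron genes, at 35.9 CPM of Tph2, the serotonin-synthesizing enzyme, and 23.4 CPM of Slc6a4, the serotonin transporter, against at most 3.06 and 0.750 in the other 22 F-coded libraries. Slc6a3, the dopamine transporter, was highest in the same library (8.39 CPM), followed by ValR 32 (5.47). In the high-score library ValR 36, Dbh, the noradrenaline-synthesizing enzyme, was at 7.86 CPM, against at most 0.654 in the low-score set.

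The striatum list was highest among the intermediate libraries in LeuR 43 (7.01 log2 CPM) and ValR 33 (6.70) and lowest in Control 27 (3.26). Ttr ranged among them from 0.773 CPM in ValR 34 to 2399 in ValR 32.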
